A study of Homo sapiens with 12 samples.

Results

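The genes described here are ribosome biogenesis factors, nucleolar proteins that make and assemble the 2 ribosomal subunits. Of 37 genes named for this group, 33 had a probe set carrying a single gene symbol and were measured, among 17958 genes on the arrays; for a gene with several such probe sets the brightest on average over the 12 arrays stood for it. MYBBP1A and NOP56 were only on probe sets shared with other genes, GNL3 and DDX18 were not named by the probe annotation, and these 4 were not analysed here. Their levels were compared in BT549, an established human triple-negative breast cancer cell line. Every culture was transfected, either with a control siRNA or with an siRNA pool against c-Jun (JUN, which forms part of AP-1, a transcription factor), and 72 hours later received vehicle or TNFα, an inflammatory cytokine, for 6 hours. The 4 groups were therefore control siRNA with vehicle, control siRNA with TNFα, c-Jun siRNA with vehicle and c-Jun siRNA with TNFα, with 3 Affymetrix arrays of total RNA in each. The comparisons ask how TNFα and the c-Jun siRNA, alone and together, alter the transcripts of these factors.

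Ribosome biogenesis begins in the nucleolus, where RNA polymerase I transcribes a long precursor rRNA. Small nucleolar ribonucleoproteins (snoRNPs) modify that precursor, the small subunit processome folds and cuts it, and a separate series of factors, helicases and GTPases matures the large subunit. In many cell types the genes of these factors are expressed together and are known targets of MYC, which binds the E-box sequence CACGTG.

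Values are log2 expression levels as deposited, and a level of 1 gene is compared only with its own level in other groups. The probe signal of every one of the 33 members was above that of the median gene (12-array mean 6.97), from LYAR at 7.87 to NPM1 at 12.15, which does not rank the genes' RNA amounts. Within a group the replicate arrays correlated at 0.998 to 0.999 over all genes, and array medians lay between 5.62 and 5.68. Whether replicates came from separate cultures is not stated; the p-values then cover only the spread among these arrays, which may be technical, and 3 arrays a group limit the precision. In bulk RNA a change in the level per cell cannot be told apart from a change in the number of cells that express a gene. JUN, the targeted gene, had group means of 10.35 and 11.07 with control siRNA (vehicle, then TNFα) and of 9.83 and 10.36 with c-Jun siRNA, so it fell by 30.5% under vehicle and fell by 38.9% under TNFα. NFKBIA, a standard TNFα target, rose by 3.10 log2 units under control siRNA and by 1.82 under c-Jun siRNA. Of markers of mesenchymal breast cancer lines (VIM, FN1, CDH2, ZEB1, CD44) 12-array means ran from 9.78 to 12.73, of luminal and epithelial markers (ESR1, PGR, ERBB2, CDH1, EPCAM, KRT8, KRT18) from 3.72 to 8.81, and of leukocyte markers (PTPRC, CD3E, CD14, CD79A, ITGAM) from 3.81 to 5.20, as probe signals that do not rank RNA amounts between genes. Some moved with the groups: c-Jun siRNA raised CDH1 by 0.55 and 0.95 and KRT18 by 0.77 and 0.72 (vehicle, then TNFα) and FN1 fell by 0.45 and 0.60, while TNFα raised ITGAM by 0.78 and 0.69 (control, then c-Jun siRNA). Of the 5 mesenchymal markers c-Jun siRNA lowered 4 under vehicle and 1 under TNFα and raised none (limma, adjusted p under 0.05). It raised 2 of the 7 luminal and epithelial markers under each treatment and lowered none. TNFα under control siRNA raised 2 mesenchymal markers and lowered 2, lowered 1 luminal or epithelial marker, and raised 1 leukocyte marker and lowered 1. Under c-Jun siRNA the counts raised and lowered were 3 and 1, 1 and 2, and 1 and 0. The part of these markers in the results was not tested. The array names carry a code whose last digits are treated here as a position column: columns 7, 7 and 5 for control siRNA with vehicle, 9, 7 and 7 with TNFα, 5, 5 and 5 for c-Jun siRNA with vehicle, and 9, 7 and 9 with TNFα. The third array of c-Jun siRNA with TNFα has a name that reads as a second run of the first, so member counts are also given with those 2 arrays averaged where they differ.

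With control siRNA, TNFα raised most of the ribosome biogenesis factors. Of the 33 members, 22 rose and 1, WDR12, fell at an adjusted p under 0.05 (limma), whereas 13.8% of all genes rose and 21.9% fell. The median log2 fold change was 0.23 over the members and -0.02 over all genes. Genes at least as bright as the dimmest member numbered 7305, of which 1650 rose and 2466 fell. Most members changed by modest amounts, from RRS1 at 1.98-fold to WDR12 at 0.803-fold. In 23 members all 3 TNFα arrays were above all 3 vehicle arrays, and in 1 all were below. Such separation was not counted over all genes, so how common it was among them is not known. The position column differed between these groups in part; with it as a block 22 members rose and 1 fell, and among the 2 vehicle and 2 TNFα arrays of column 7 alone 21 rose and 1 fell.

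**Figure D1:**
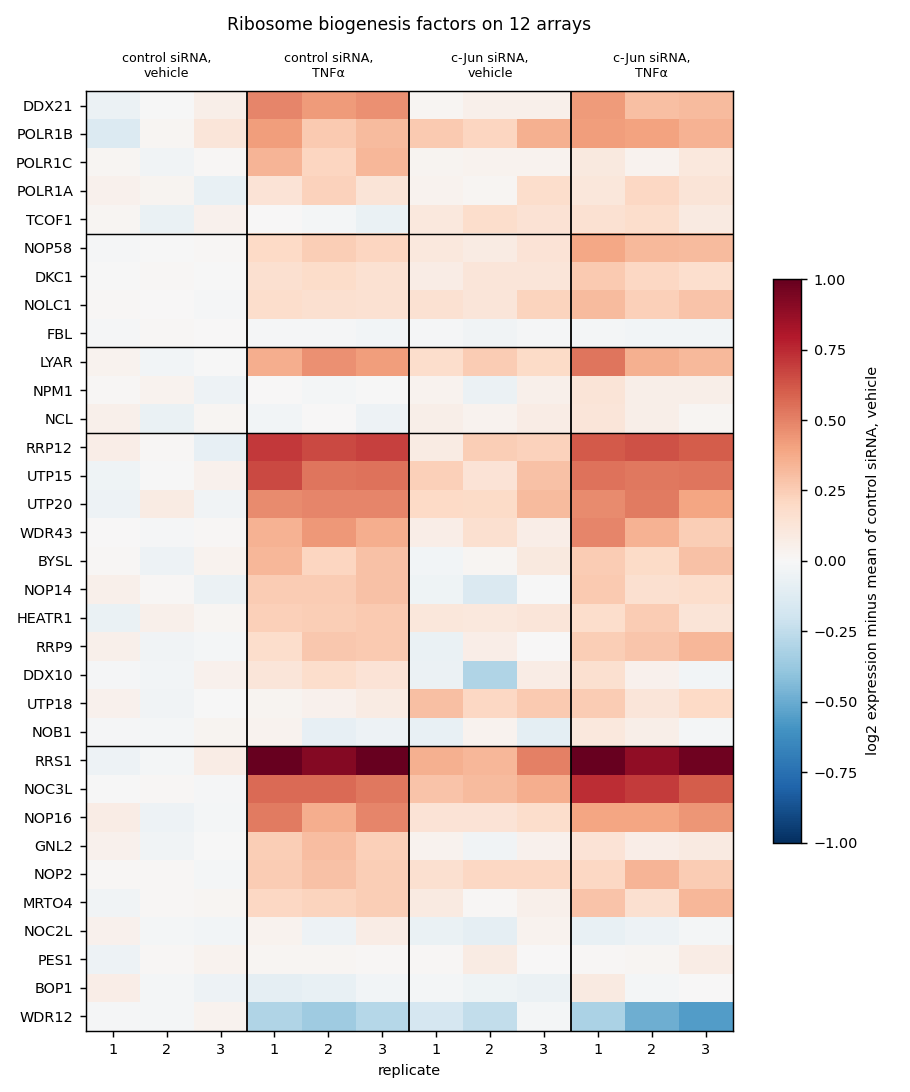
Log2 expression of the 33 members on each of the 12 arrays (columns, by group and replicate) minus the gene's mean in control siRNA with vehicle, as colour from blue (lower) to red (higher), with members grouped by role. The TNFα arrays are redder than the vehicle arrays for most rows, RRS1 most of all, WDR12 is blue on all 6 TNFα arrays, and FBL, NCL and PES1 stay near 0 throughout.

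Under c-Jun siRNA, TNFα again raised many of the members. Here 16 rose and 1 fell (limma, adjusted p under 0.05), beside 11.3% of all genes that rose and 18.3% that fell, and the median was 0.11 over the members and -0.02 over all genes. Of the 7305 genes at least as bright as the dimmest member 1339 rose and 2095 fell, 47% in all beside 51.5% of the members. The 16 members that rose had all risen with control siRNA too. The count depended on the scaling: with array medians centred 24 members rose and 1 fell, against 22 and 1 with control siRNA, and over all genes 2858 rose and 2394 fell in place of 2036 and 3284. The 8 members gained were POLR1B, NPM1, HEATR1, NOB1, DDX10, BOP1, NOP2 and GNL2, and the members' median was then 0.16, against 0.26 with control siRNA. No position column held arrays of both these groups, so no within-column value exists, and with the column as a block 7 members rose and none fell: DDX21, NOP58, UTP15, RRP9, RRP12, RRS1 and NOC3L. The median then was 0.14.

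Among the large subunit factors RRS1, which works with RPF2 to load the smallest rRNA into the nascent large subunit, gave the largest response of any member. Its levels were 10.29, 10.31 and 10.41 with control siRNA and vehicle and 11.35, 11.25 and 11.36 with TNFα. With c-Jun siRNA they were 10.69, 10.67 and 10.84 with vehicle and 11.33, 11.22 and 11.31 with TNFα. The vehicle arrays of c-Jun siRNA thus lay above all those of control siRNA, while the TNFα arrays of the 2 siRNAs overlapped. TNFα raised RRS1 by 0.99 ± 0.0466 log2 units (SE) with control siRNA (limma, adjusted p = 5.2e-12), at percentile 98.2 of all genes, and by 0.55 ± 0.0466 with c-Jun siRNA (adjusted p = 2.43e-08).

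NOC3L, needed for early large subunit maturation, read 9.16, 9.18 and 9.15 with control siRNA and vehicle, then 9.73, 9.73 and 9.69 with TNFα. With c-Jun siRNA its levels were 9.45, 9.48 and 9.52 with vehicle and 9.90, 9.86 and 9.77 with TNFα. No 2 groups overlapped: c-Jun siRNA with TNFα was the highest and control siRNA with vehicle the lowest. The TNFα response was 0.56 ± 0.0388 with control siRNA (limma, adjusted p = 1.41e-09) and 0.36 ± 0.0388 with c-Jun siRNA (adjusted p = 6.47e-07). NOP16, a nucleolar large subunit factor, went from 8.59, 8.47 and 8.50 to 9.04, 8.88 and 9.01 with control siRNA and from 8.66, 8.65 and 8.70 to 8.91, 8.91 and 8.96 with c-Jun siRNA. All its TNFα arrays were above all its vehicle arrays under each siRNA, with responses of 0.46 and 0.26.

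GNL2, a nucleolar GTPase, and NOP2, an rRNA methyltransferase, rose with TNFα by 0.26 each under control siRNA and did not pass the test under c-Jun siRNA, at 0.08 each (limma, adjusted p = 0.0882 for GNL2 and 0.122 for NOP2). With array medians centred both passed it there, at 0.13 each (adjusted p = 0.00766 and 0.0137), and NOP2 also passed without array 1 of c-Jun siRNA with TNFα (0.0387). GNL2 read 10.56, 10.48 and 10.51 with vehicle and 10.76, 10.83 and 10.76 with TNFα under control siRNA, and 10.55, 10.48 and 10.56 then 10.65, 10.59 and 10.60 under c-Jun siRNA. Its 3 c-Jun siRNA arrays with TNFα lay between its vehicle arrays and its control siRNA arrays with TNFα. NOP2 read 9.95, 9.95 and 9.92, then 10.19, 10.23 and 10.18 under control siRNA, and 10.10, 10.14 and 10.14, then 10.15, 10.28 and 10.20 under c-Jun siRNA. Its c-Jun siRNA arrays with vehicle were already above every control siRNA array with vehicle. MRTO4, a relative of the ribosomal stalk protein that holds its place during assembly, rose alike under both siRNAs, by 0.22 and 0.21 (difference between the 2 responses -0.02, 95% interval -0.14 to 0.11).

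WDR12 was the only member to fall with TNFα. It forms the PeBoW complex of large subunit assembly with PES1 and BOP1. Its levels were 9.17, 9.17 and 9.22 with control siRNA and vehicle and 8.89, 8.83 and 8.90 with TNFα. With c-Jun siRNA they were 9.02, 8.94 and 9.17, then 8.87, 8.70 and 8.63. All TNFα arrays lay below all vehicle arrays, and the fold changes were -0.32 ± 0.0598 with control siRNA (limma, adjusted p = 0.000322) and -0.31 ± 0.0598 with c-Jun siRNA (adjusted p = 0.00047; 0.155 with the position column as a block). Its partners did not pass the test in any comparison in the main limma fit. With control siRNA TNFα gave 0.02 for PES1 (95% interval -0.06 to 0.09) and -0.06 for BOP1 (-0.14 to 0.02). BOP1 was called in 1 of 18 alternative settings for TNFα with c-Jun siRNA and in 2 of 20 between the TNFα groups. NOC2L, a partner of NOC3L, gave 0.02 (-0.06 to 0.10), with arrays between 10.69 and 10.86 throughout.

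Among the small subunit factors 8 of 11 rose with TNFα under control siRNA and 7 of 11 under c-Jun siRNA, with medians of 0.27 and 0.23. Over all genes 13.8% and 11.3% rose. None of the 11 was lower by limma at an adjusted or an unadjusted p under 0.05. With the position column as a block the calls of NOP14, WDR43, UTP20 and BYSL under c-Jun siRNA were lost. RRP12, which accompanies small subunit precursors out of the nucleus, read 9.50, 9.44 and 9.35 with control siRNA and vehicle and 10.13, 10.09 and 10.11 with TNFα. With c-Jun siRNA it read 9.51, 9.67 and 9.66, then 10.04, 10.07 and 10.04. Its TNFα arrays under c-Jun siRNA were all slightly below those under control siRNA, and its vehicle arrays all above. The responses were 0.68 ± 0.0451 (1.61-fold; limma, adjusted p = 6.38e-10) and 0.43 ± 0.0451 (1.35-fold; adjusted p = 4.19e-07).

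UTP15 belongs to the UTP-A group of proteins that first joins the rRNA precursor. It read 9.06, 9.10 and 9.14 with control siRNA and vehicle and 9.76, 9.64 and 9.65 with TNFα. With c-Jun siRNA it read 9.34, 9.24 and 9.39, then 9.65, 9.63 and 9.63. The vehicle arrays separated by siRNA and the TNFα arrays did not, and the responses were 0.58 and 0.31. In the same UTP-A group WDR43 rose by 0.38 and 0.26 under the 2 siRNAs, while HEATR1 rose by 0.25 with control siRNA and read 0.07 with c-Jun siRNA (95% interval -0.0046 to 0.15).

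UTP20, a large scaffold protein of the processome, read 8.63, 8.77 and 8.66 with control siRNA and vehicle and 9.16, 9.18 and 9.17 with TNFα. With c-Jun siRNA it read 8.88, 8.88 and 9.01, then 9.16, 9.21 and 9.08. As with UTP15, c-Jun siRNA separated the vehicle arrays but left the TNFα arrays overlapping. BYSL (0.28 and 0.22), NOP14 (0.27 and 0.26) and RRP9 (0.23 and 0.28), which act with or bind the U3 snoRNP and pre-small-subunit particles, rose under both siRNAs. NOB1, the endonuclease that makes the last cut in the small subunit rRNA, gave -0.03 with control siRNA (95% interval -0.12 to 0.05). DDX10, a helicase, was higher on all 3 TNFα arrays with control siRNA (8.65, 8.70 and 8.66 against 8.51, 8.50 and 8.57) but did not pass the test (0.14, 95% interval -0.01 to 0.29, adjusted p = 0.141).

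**Figure D2:**
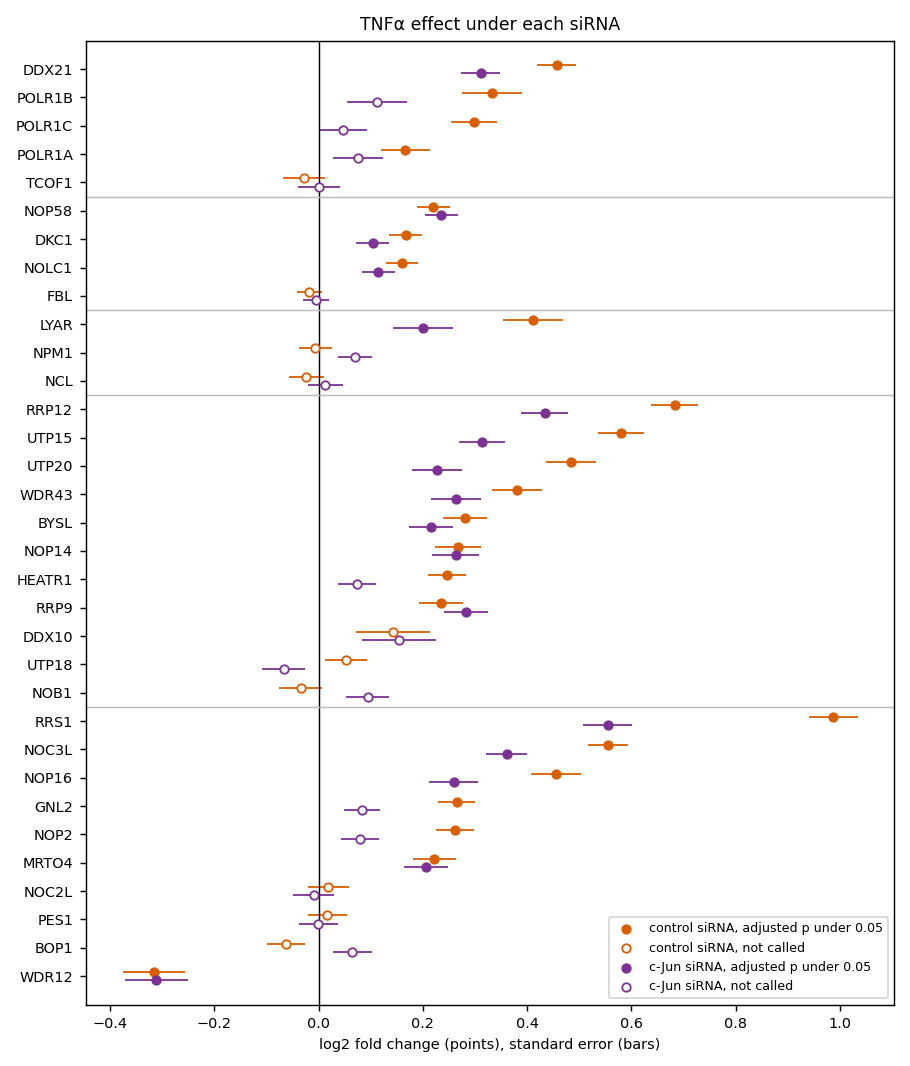
TNFα minus vehicle for each member, as a log2 fold change (points) with its standard error (bars) in the limma fit, under control siRNA (orange) and c-Jun siRNA (purple); filled points passed adjusted p under 0.05 and members are grouped by role. Orange points lie to the right of purple ones for 23 of the 33 members, and WDR12 alone lies far to the left under both.

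In the group that transcribes rRNA 4 of 5 measured members rose with TNFα under control siRNA and 1, DDX21, under c-Jun siRNA. Over all genes 13.8% and 11.3% rose. DDX21 is a nucleolar helicase: 11.02, 11.07 and 11.14 became 11.56, 11.50 and 11.53 with control siRNA, and 11.09, 11.12 and 11.12 became 11.50, 11.37 and 11.39 with c-Jun siRNA. Every TNFα array was above every vehicle array, and the responses were 0.46 ± 0.0374 and 0.31 ± 0.0374 (limma, adjusted p = 1.26e-08 and 2.7e-06). POLR1B, the second largest subunit of RNA polymerase I, gave 0.33 and 0.11, and POLR1A, the largest subunit, gave 0.17 and 0.08. The call for POLR1A under control siRNA was lost without vehicle array 3 (limma, adjusted p = 0.0623) or TNFα array 2 (0.0575) and within position column 7 (0.064). POLR1C, a subunit shared by RNA polymerases I and III, read 8.43, 8.37 and 8.42 with control siRNA and vehicle and 8.75, 8.62 and 8.74 with TNFα. Under c-Jun siRNA it read 8.43, 8.44 and 8.44 with vehicle and 8.50, 8.44 and 8.51 with TNFα. The control siRNA arrays with TNFα were the highest, and the others lay between 8.37 and 8.51. The response was 0.30 ± 0.0445 under control siRNA (limma, adjusted p = 2.78e-05) and 0.05 ± 0.0445 under c-Jun siRNA (adjusted p = 0.504). The difference between the 2 responses passed the test for POLR1C (-0.25, limma, adjusted p = 0.0234). It did not for POLR1B (-0.22, adjusted p = 0.152), DDX21 (-0.15, 0.14), POLR1A (-0.09, 0.565) or TCOF1 (0.03, 0.878).

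Of the snoRNP proteins NOP58, the core box C/D protein, DKC1, the pseudouridine synthase of box H/ACA particles, and NOLC1, their chaperone, rose with TNFα under both siRNAs. NOP58 read 10.32, 10.34 and 10.35, then 10.54, 10.59 and 10.55 with control siRNA, and 10.45, 10.42 and 10.48, then 10.73, 10.66 and 10.66 with c-Jun siRNA. Its 4 groups did not overlap, in the order control vehicle, c-Jun vehicle, control TNFα and c-Jun TNFα. The TNFα responses were 0.22 and 0.24 for NOP58, 0.17 and 0.10 for DKC1, and 0.16 and 0.11 for NOLC1. Under c-Jun siRNA the call was lost for DKC1 without vehicle array 1 (limma, adjusted p = 0.082) or TNFα array 1 (0.0857) and with the position column as a block (0.412), and for NOLC1 without vehicle array 2 (0.0521) and with the block (0.587). FBL, the methyltransferase of the same box C/D particle as NOP58, did not pass the test in any comparison. All 12 of its arrays lay between 11.82 and 11.87, and its TNFα response with control siRNA was -0.02 (95% interval -0.07 to 0.03).

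The abundant nucleolar proteins NCL and NPM1, which bind rRNA and ribosomal proteins, likewise passed no test in the main limma fit. Their TNFα responses with control siRNA were -0.02 (95% interval -0.09 to 0.05) and -0.01 (-0.07 to 0.06). Between the TNFα groups NCL was higher with c-Jun siRNA by 0.09 (limma, adjusted p = 0.0541), without overlap of arrays. It was called there in 3 of 19 alternative settings. NPM1 read 12.14, 12.16 and 12.08 with control siRNA and vehicle, 12.13, 12.11 and 12.12 with TNFα, 12.16, 12.07 and 12.18 with c-Jun siRNA and vehicle, and 12.25, 12.19 and 12.19 with both. The last group lay just above the others, by 0.09 against control siRNA with TNFα (limma, adjusted p = 0.0508). That difference was called in 7 of 22 alternative settings, which include other probe sets. NPM1 has many processed copies in the genome and 3 further probe sets on the arrays: 2 of them gave 0.10 for the same difference (adjusted p = 0.0238 and 0.0109), and the dimmest of the 4, with a mean of 5.06, gave -0.11 (adjusted p = 0.508). LYAR, a nucleolar zinc finger protein of growing cells and the dimmest member, read 7.66, 7.59 and 7.61, then 7.98, 8.07 and 8.04 with control siRNA and rose by 0.41 ± 0.0575 (limma, adjusted p = 1.27e-05). With c-Jun siRNA it read 7.79, 7.87 and 7.81, then 8.15, 7.97 and 7.94, a rise of 0.20 ± 0.0575 whose call was lost without TNFα array 1 (limma, adjusted p = 0.085) and with the position column as a block (0.383).

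Without TNFα, c-Jun siRNA itself was accompanied by higher levels of many members. Under vehicle 15 rose and none fell (limma, adjusted p under 0.05; 15 and 1 at an unadjusted p under 0.05), beside 14.4% of all genes that rose and 14.5% that fell; the medians were 0.08 over the members and -0.01 over all genes. Of the 7305 genes at least as bright as the dimmest member 1791 rose and 1750 fell, 48.5% in all beside 45.5% of the members. With the possible repeat runs averaged 16 members rose and 1 fell, WDR43 being added above and WDR12 below. The 15 were spread over every role, with 2 of 5 in rRNA transcription, 3 of 4 snoRNP proteins, 1 of 3 abundant nucleolar proteins, 5 of 11 small subunit factors and 4 of 10 large subunit factors. RRS1 (0.40 ± 0.0466, adjusted p = 2.25e-06), NOC3L (0.32 ± 0.0388, adjusted p = 3.4e-06), POLR1B (0.28) and UTP18 (0.26) moved the most. All 3 c-Jun siRNA arrays with vehicle were on position column 5, as was 1 control array with vehicle; within that column 8 members rose, the single control array being assumed to vary like the others, and with the column as a block 7 rose: NOLC1, UTP18, UTP20, RRP12, NOP2, RRS1 and NOC3L. In the same comparison NFKBIA rose by 1.27 and the chemokine CXCL8, another TNFα target, by 2.47.

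UTP18 and TCOF1 rose with c-Jun siRNA under both treatments and did not pass the test for TNFα under either siRNA. UTP18, of the UTP-B group of the processome, read 9.60, 9.52 and 9.55 with control siRNA and vehicle, 9.59, 9.60 and 9.64 with TNFα, 9.86, 9.76 and 9.82 with c-Jun siRNA and vehicle, and 9.81, 9.67 and 9.75 with both. Every c-Jun siRNA array was above every control siRNA array, by 0.26 under vehicle (limma, adjusted p = 7.97e-05) and 0.14 under TNFα (adjusted p = 0.0157, a call lost under 5 alternatives, up to 0.621 within position column 7). TCOF1, treacle, which couples RNA polymerase I to rRNA modification, read 9.37, 9.28 and 9.39 with control siRNA and vehicle and 9.35, 9.32 and 9.28 with TNFα. With c-Jun siRNA it read 9.45, 9.52 and 9.49, then 9.50, 9.52 and 9.43, again all above the control siRNA arrays. The differences were 0.14 (limma, adjusted p = 0.0138) and 0.17 (adjusted p = 0.00395), and they did not pass the test within position column 5 under vehicle (adjusted p = 0.326) or within column 9 under TNFα (adjusted p = 0.24). Under vehicle the call was also lost with the column as a block (adjusted p = 0.339) and without array 2 of control siRNA (0.0872) or array 2 of c-Jun siRNA (0.0574).

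Between the TNFα groups the 2 siRNAs left the members close together. With c-Jun siRNA 5 members were higher (TCOF1, NOP58, NOLC1, UTP18 and NOC3L) and 3 lower (POLR1C, GNL2 and DDX21) at an adjusted p under 0.05, beside 14.1% of all genes higher and 14.4% lower. Of the 7305 genes at least as bright as the dimmest member 1720 were higher and 1734 lower, 47.3% in all beside 24.2% of the members. With array medians centred 8 members were higher and 2 lower: NCL, NPM1 and BOP1 joined the higher ones and DDX21 was lost. With the possible repeat runs averaged 4 were higher and 3 lower, UTP18 being lost. The median was -0.01 over the members, 0.0011 over all genes, and 0.01 over the members with array medians centred. POLR1C fell by 0.22 on the log2 scale (limma, adjusted p = 0.000917) and GNL2 by 0.17 (adjusted p = 0.00118), with no overlap of arrays. DDX21 fell by 0.11 with overlapping arrays (adjusted p = 0.0386), a call lost under 10 alternatives, among them leaving out control siRNA array 1 or 3 or c-Jun siRNA array 2 or 3. Within position column 7 the test called 1 member higher and 2 lower, and within column 9 it called 2 higher and 1 lower, each on 3 arrays with 1 group held by a single array that is assumed to vary like the others. For RRS1, which differed by 0.40 under vehicle, the difference under TNFα was -0.03 (95% interval -0.13 to 0.06).

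**Figure D3:**
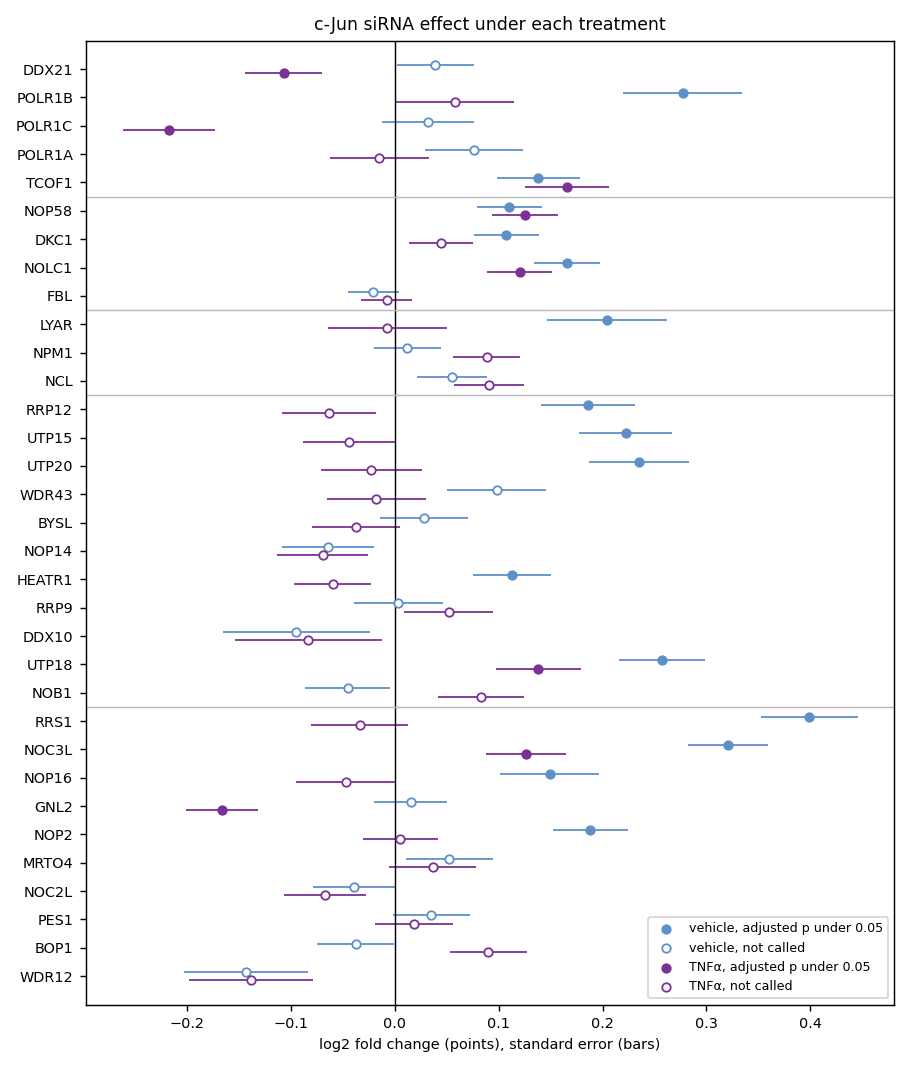
c-Jun siRNA minus control siRNA for each member, as a log2 fold change (points) with its standard error (bars) in the limma fit, under vehicle (blue) and TNFα (purple); filled points passed adjusted p under 0.05. Blue points lie mostly to the right of 0, up to RRS1 at 0.40, whereas purple points scatter around 0, with POLR1C and GNL2 to the left and TCOF1, UTP18, NOC3L, NOP58 and NOLC1 to the right.

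The difference between the 2 TNFα responses was tested as an interaction. Of the 33 members 8 had a smaller response with c-Jun siRNA and none a larger one (limma, adjusted p under 0.05; 13 and 2 at an unadjusted p under 0.05), beside 3.59% and 1.88% of all genes (645 and 338 genes, or 568 and 466 with array medians centred, when 5 members were called), and 23 of 33 estimates were below 0. Of the 7305 genes at least as bright as the dimmest member 456 interactions were lower and 216 higher, 9.2% in all beside 24.2% of the members. The median difference was -0.07 over the members and 0.01 over all genes. The 8 were RRS1 (-0.43 ± 0.0659, adjusted p = 0.000331), UTP15 (-0.27), UTP20 (-0.26), POLR1C (-0.25), RRP12 (-0.25), NOC3L (-0.19), NOP2 (-0.18) and GNL2 (-0.18). RRS1, RRP12, UTP15, UTP20 and NOP2 had risen with c-Jun siRNA under vehicle and were not called under TNFα. NOC3L had risen under both, by 0.32 and 0.13, the second call being lost within columns 7 and 9 (limma, adjusted p up to 0.325) and without control siRNA array 3 or c-Jun siRNA array 1 or 2 with TNFα. POLR1C and GNL2 instead were not called under vehicle and were lower with c-Jun siRNA under TNFα.

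Most of these 8 calls were near the threshold. RRS1 kept its call in all 22 alternatives (highest adjusted p 0.0156), UTP15 lost it in 2, POLR1C in 5, RRP12 in 10, UTP20 in 13, GNL2 in 14, and NOC3L and NOP2 in 16 each. With the position column as a block RRS1 (-0.38) and RRP12 (-0.33) were called, and 2 members were called without array 1 or 3 of control siRNA with TNFα. Leaving out array 3 of either c-Jun siRNA group gave 3, array 2 or 3 of control siRNA with vehicle 4, and array 1 of control siRNA with vehicle, array 2 of control siRNA with TNFα or array 1 or 2 of c-Jun siRNA with vehicle 5. With the 2 arrays that may be repeat runs averaged, 5 were called. The TNFα targets NFKBIA (-1.28), TNFAIP3 (-1.13) and CXCL8 (-2.27) also had smaller TNFα responses with c-Jun siRNA, from higher vehicle levels.

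**Figure D4:**
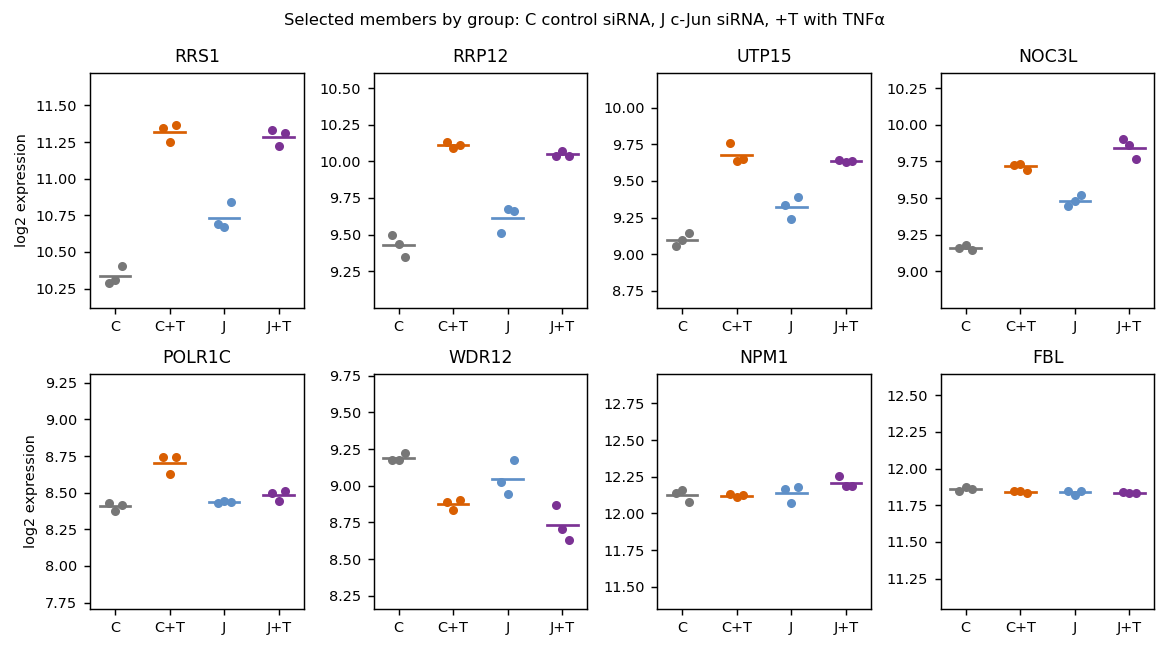
Log2 expression of 8 members on every array (points) with group means (lines); C is control siRNA, J c-Jun siRNA, and +T with TNFα, on axes that span the same range for each gene. RRS1, RRP12, UTP15 and NOC3L step up with TNFα from a vehicle level that is higher with c-Jun siRNA, POLR1C is highest in control siRNA with TNFα, WDR12 falls, and NPM1 and FBL stay nearly level.

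Taken per array, the median member lay 0.20 to 0.24 above its control vehicle mean with control siRNA and TNFα, 0.07 to 0.09 above with c-Jun siRNA and vehicle, and 0.20 to 0.25 above with both, and from -0.0037 to 0.01 on the control vehicle arrays themselves. The 98 other ribosome biogenesis factors measured followed the same order at lower values, with 0.11 to 0.14, 0.02 to 0.06 and 0.09 to 0.15. The medians of all genes stayed between -0.03 and 0.01.

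**Figure D5:**
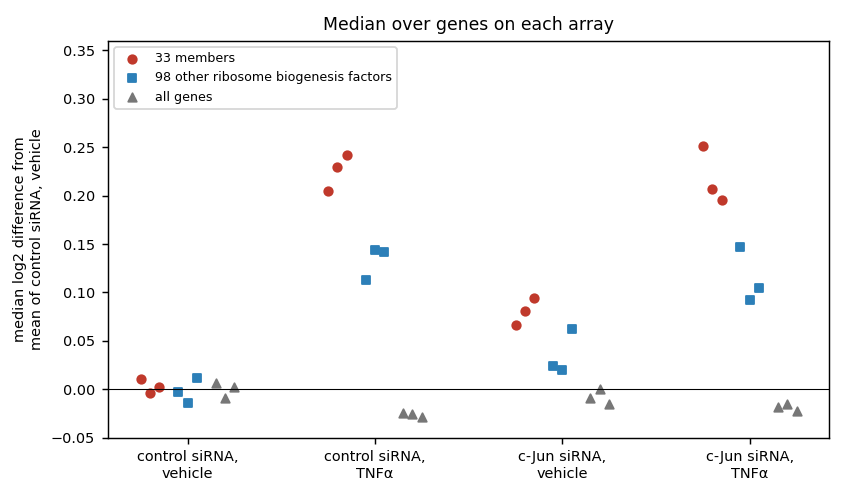
Median over genes, on each array, of the log2 difference from that gene's mean in control siRNA with vehicle, for the 33 members (red circles), 98 other ribosome biogenesis factors (blue squares) and all genes (grey triangles). Member medians on the 6 TNFα arrays are all at 0.19 or higher, those of c-Jun siRNA with vehicle lie between 0.07 and 0.09, and the median over all genes is at or just below 0 on every treated array.

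Factors of the same pathway outside the 33 were counted from lists of known components. Like the members, these lists were chosen with earlier results of these data known. Of the 98 other factors 52 rose and 4 fell with TNFα under control siRNA (median 0.14), and 41 rose and none fell under c-Jun siRNA (median 0.09; 46 and 5 at an unadjusted p under 0.05 in limma). Over all genes 13.8% rose and 21.9% fell with TNFα under control siRNA, and 11.3% and 18.3% under c-Jun siRNA. With c-Jun siRNA 26 of the 98 rose and 7 fell under vehicle, beside 14.4% and 14.5% of all genes. Under TNFα 13 rose and 14 fell, 27.6% in all, near the 28.5% of all genes called. In the interaction 7 were lower and 1 higher, beside 3.59% and 1.88% of all genes. Of the other small subunit factors, 25 of 34 rose and none fell with TNFα under control siRNA, the same counts as at an unadjusted p under 0.05 in limma: NOL6, a processome protein, rose by 0.73, PNO1, which holds NOB1 on the precursor, by 0.65, and RCL1 by 0.59. Like RRS1, NOL6 and RCL1 were raised by c-Jun siRNA under vehicle (0.30 and 0.36) and had smaller TNFα responses with it (interaction -0.30 and -0.39). Of 40 other large subunit factors 18 rose and 2 fell, led by NIP7 (0.57), PUM3 (0.47) and the ATPase MDN1 (0.41), and of 13 other snoRNP factors 5 rose, led by the box C/D assembly protein ZNHIT6 (0.39).

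Few genes of the ribosomal proteins, the structural parts that these factors assemble, passed the test. Of 60 measured cytosolic ribosomal protein genes none rose and 4 fell with TNFα under control siRNA (limma, adjusted p under 0.05), with a median of -0.02; at an unadjusted p under 0.05 none was higher and 5 were lower. The falls were small, such as RPL7A at -0.11 and RPL28 at -0.10. Under c-Jun siRNA 1 rose and 1 fell with TNFα, beside 11.3% and 18.3% of all genes. No interaction was called by limma (3 higher and 3 lower at an unadjusted p under 0.05), beside 1.88% higher and 3.59% lower over all genes. Other RNA polymerase I factors were mixed: 4 of 11 rose with TNFα under control siRNA, led by the subunit POLR1F (0.42), and 2 fell, among them UBTF, which bends rDNA for polymerase I, by 0.34 on the log2 scale. Of 10 RNA exosome genes 2 rose and 1 fell in the same comparison, in which 13.8% of all genes rose and 21.9% fell.

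MYC, the transcription factor known to drive these genes, had levels of 10.96, 10.88 and 10.90 with control siRNA and vehicle, 11.25, 11.13 and 11.18 with TNFα, 11.16, 11.22 and 11.13 with c-Jun siRNA and vehicle, and 11.27, 11.19 and 11.34 with both. The control siRNA arrays with vehicle were the only group set apart from all the others. MYC rose by 0.27 ± 0.0409 with TNFα under control siRNA (limma, adjusted p = 3.19e-05) and by 0.25 ± 0.0409 with c-Jun siRNA under vehicle (adjusted p = 9.61e-05), and did not pass the test for TNFα under c-Jun siRNA (0.10, adjusted p = 0.0892). Of 10 genes of the MYC network 3 rose and 4 fell with TNFα under control siRNA, beside 13.8% and 21.9% of all genes. MLXIP, a partner of MLX, rose by 0.41 (limma, adjusted p = 8.7e-07), and MAX, the partner of MYC, by 0.19 (adjusted p = 0.00459). Antagonists of MYC pair with MAX in its place. Of these, MXD3 fell by 0.61 log2 units, MXI1 by 0.56, MXD4 by 0.36 and MNT by 0.23 with TNFα under control siRNA. The remaining 3 genes of the network, MXD1, MLX and MGA, were not called there. At an unadjusted p under 0.05 in limma 4 of the 10 were higher and 4 lower. MXD3 also fell with c-Jun siRNA under vehicle, by 0.43, and it was the 1 gene of the 10 in the MYC network with a called interaction (0.37, adjusted p = 0.00261). Whether any of these moved the ribosome biogenesis factors was not tested.

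Promoter sequences of the members were searched for the E-box and 3 other motifs. RefSeq promoter windows (GRCh38.p14, 250 bases before to 50 after each gene's start) were at hand for 27 of the 33 members; TCOF1, NOP58, NOLC1, RRP12, BOP1 and RRS1 had none. The E-box CACGTG, which reads the same on both strands, was in a window of 14 of 27 members (51.9%), of 26 of 86 other factors (30.2%), of 3 of 52 ribosomal protein genes (5.77%), of 11.0% of all measured genes with a window and of 8.77% of all 27305 genes in the table. It was in 11 of 18 members that rose with TNFα under control siRNA and in 3 of 9 that did not. Of the 15 E-boxes in members, 12 began between 10 bases before and 35 bases after the start. These limits are the positions of the outermost of the 12 (UTP20 and NOP2), and E-box positions in other genes were not counted. The following stretches of 30 bases are shown 5′ to 3′ on the gene's strand, with the E-box in capitals, for 6 members that rose with TNFα and for FBL and PES1, which did not and also carry it.
NOC3L, chr10:94362903-94362932, minus strand, E-box 19 bases after the start: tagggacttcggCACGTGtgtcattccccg
UTP20, chr12:101280083-101280112, plus strand, E-box 10 bases before the start: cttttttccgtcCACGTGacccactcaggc
DDX21, chr10:68956604-68956633, plus strand, E-box 31 bases before the start: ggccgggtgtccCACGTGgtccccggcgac
WDR43, chr2:28894658-28894687, plus strand, E-box 3 bases after the start: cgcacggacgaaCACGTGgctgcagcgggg
GNL2, chr1:37595917-37595946, minus strand, E-box 3 bases after the start: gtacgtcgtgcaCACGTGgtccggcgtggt
LYAR, chr4:4290068-4290097, minus strand, E-box 64 bases before the start: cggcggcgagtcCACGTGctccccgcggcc
FBL, chr19:39846356-39846385, minus strand, E-box 6 bases after the start: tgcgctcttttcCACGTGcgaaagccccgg
PES1, chr22:30591880-30591909, minus strand, E-box 13 bases after the start: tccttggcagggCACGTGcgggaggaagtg

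The 3 other motifs were sought on both strands in the same windows. The AP-1 motif TGANTCA was in 1 of 27 members (NPM1), beside 8.0% of all measured genes; the related CRE motif TGACGTCA was in 1 (DDX10), beside 3.12%; and the NF-kB motif (GGGA, any base, TTTCC) was in none, beside 0.714%. None of the 3 was in a window of a member that rose with TNFα under control siRNA. A match here describes letters in a window, not a bound site, and a missing match says only that these letters are not in these 300 bases. Whether E-box carriage goes with the TNFα response was not tested, and 6 members had no window, RRS1 and RRP12 among them. UTP18 had 2 E-boxes and no called TNFα response, and UTP15, NOP16 and POLR1C rose without one in their windows.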

How the data were processed

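The deposited series table holds 1 log2 expression value per probe set and array for 12 arrays of total RNA; per the submitters' processing notes the tools were Affymetrix Expression Console 1.1 and PLIER, with roles not given. The log2 scale is inferred from the values (2.27 to 13.97); the normalization is not given in the sources used here, and the values were used as deposited. Of 33297 probe sets 19181 carried 1 symbol, 2055 several and 12061 none here. Groups and replicate numbers came from the labels.

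Levels were fitted with limma 3.58.1 (R 4.3.3), 1 mean per group, all 12 arrays, an empirical Bayes spread with a mean-variance trend, and Benjamini-Hochberg adjustment over 17958 genes; a call is an adjusted p under 0.05, two-sided. Intervals are at 95%. Code was tested on simulated data. All listed members were named, with JUN, TNFα targets, MYC and its network, and up to 3 called genes with the largest change per other list. Members and lists were chosen with earlier results of these data known. Alternatives covered scaling, a floor, filtering of dim genes, probe set choice, variance model, array weights, samples in the fit, the replicate number, the position column, a possible repeat run and each array in turn; other probe sets of NPM1 and BOP1 were added after seeing the data. Tables were read and figures drawn with Python 3.11.15, pandas 2.3.3 and matplotlib 3.10.9.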

Additional observations from a re-analysis of the deposited data

Results flagged for a closer look

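In 8 members the TNFα response with c-Jun siRNA differed from that with control siRNA by the test of the difference itself, the interaction term of the limma fit. The difference in log2 units (c-Jun siRNA minus control siRNA) was -0.43 for RRS1, -0.27 for UTP15, -0.26 for UTP20, -0.25 for POLR1C, -0.25 for RRP12, -0.19 for NOC3L, -0.18 for NOP2 and -0.18 for GNL2. All 8 were below 0. Over all genes the difference was called below 0 in 3.59% and above 0 in 1.88%. Only RRS1 kept its call in all 22 alternatives, and NOC3L and NOP2 lost theirs in 16 each. With the position column as a block 6 of the 8 calls were lost. With 3 arrays a group, single arrays were not tested as outliers.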

How the results depend on the processing

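Of 3122 member values under the alternatives 118 had the opposite sign, and none of those was called in either fit. The members' median for c-Jun siRNA with TNFα lay near 0 and also changed sign, to 0.01, with array medians centred, within column 7 (0.0055) and without array 2 of control siRNA with TNFα (0.01). TNFα with control siRNA gave 22 or 23 called members of 33 whichever array was left out. With the position column as a block the called members came to 7 for TNFα with c-Jun siRNA (2376 genes in all), 7 for c-Jun siRNA with vehicle (3448 genes) and 2 for the interaction (531 genes). Within column 5 c-Jun siRNA with vehicle called 8 members, and c-Jun siRNA with TNFα called 3 within column 7 and 3 within column 9 (3182 genes). With array medians centred TNFα with c-Jun siRNA called 25 members (24 rose) against 17 (16 rose), above the 23 of control siRNA, its median was 0.16, and the interaction called 5; it called 3 with a floor at the first quartile, 2 without the mean-variance trend, 5 with the 2 possible repeat runs averaged, and from 2 to 7 with 1 array left out. In each case the cause was not tested. Left-out arrays gave 16 to 18 members for TNFα with c-Jun siRNA, 13 to 14 for c-Jun siRNA with vehicle and 6 to 8 for c-Jun siRNA with TNFα. The replicate numbers do not pair the arrays: same-numbered arrays' deviations correlated from -0.06 to 0.09. With the replicate number as a block 23, 17, 15, 8 and 7 members were called in the 5 comparisons, the last against 8 without it (NOC3L was lost). Arrays on a common scale give a gene's level relative to the rest of the RNA, so the total amount of RNA per cell was not measured. The median standard error of log2 changes over genes was 0.0649 for a comparison of groups and 0.0918 for the interaction.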

Other observations

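Among factors outside the 33 members, 4 with called changes under c-Jun siRNA differed from each other in direction. RIOK1, a kinase that acts late in small subunit maturation, fell with c-Jun siRNA by 0.31 on the log2 scale under vehicle (limma, adjusted p = 1.82e-06) and by 0.31 under TNFα (adjusted p = 1.9e-06), and it rose with TNFα by 0.37 under either siRNA. POLR1G, a subunit of RNA polymerase I, rose with c-Jun siRNA by 0.37 and 0.36 under the 2 treatments and with TNFα by 0.28 and 0.27. TAF1C, of the selectivity factor that places polymerase I on rDNA, fell with c-Jun siRNA by 0.43 under vehicle and by 0.21 under TNFα and was not called for TNFα. RRP1B, a nucleolar large subunit factor, rose by 0.37 with c-Jun siRNA under vehicle and by 0.23 with TNFα under control siRNA, and gave -0.04 with TNFα under c-Jun siRNA (interaction -0.27, adjusted p = 0.000683).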
